A study of Danio rerio with 4 samples.

Results

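When a ribosome slows on an mRNA, the ribosome behind it can run into it, and the stacked pair, the disome, protects a longer mRNA fragment from RNase than a single ribosome, the monosome. Monosome footprints report how much an ORF is translated, and disome footprints report how often ribosomes were stacked on it. Stacked ribosomes are sensed by Znf598, an E3 ubiquitin ligase that marks them for rescue. The paper searched for its target mRNAs among those that rose in mutant embryos lacking Znf598, and then related disome footprints to them. On the transcripts described here, monosome footprints were counted on the coding sequence and disome footprints were not.

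The transcripts were chosen by their measured counts, that is, 0 disome footprints in both disome libraries and at least 20 monosome footprints over both monosome libraries. Their coding sequence had more than 100 and up to 2000 codons, a run of 37 mitochondrial rows was left out, and a transcript with the same 4 counts as one listed before it was dropped. The rule found 213 transcripts (1.65%) among 12883 that met every condition other than the absence of disome footprints, called eligible below, and among 59876 listed. Because the disome count was part of the rule, the 0 itself is a description and was not tested.

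Footprints came from whole wild-type zebrafish embryos of the AB strain at 4 hpf, in 2 disome libraries and 2 monosome libraries. All 4 libraries share 1 genotype, 1 stage and 1 treatment, the injection of sfGFP reporter mRNAs into the 1-cell embryo. The comparison is thus between the 2 kinds of footprint and not between conditions. The labels do not say whether replicates came from separate clutches, so p-values measure only the spread between libraries, which may be technical. The embryo was lysed whole, so a difference between cells in which a transcript is translated cannot be seen.

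Disome libraries held 473057 and 364830 counts and monosome libraries 2749837 and 3814224, so that a single count stood for 2.11 and 2.74 CPM (counts per 1000000) in the disome libraries and for 0.364 and 0.262 CPM in the monosome libraries. Replicates differed by more than the sampling noise in both kinds, at a chi-square of 1.28 per degree of freedom over 5555 transcripts in the disome libraries and of 1.78 over 12883 in the monosome libraries. Libraries were therefore kept apart in the test across all transcripts and in the reading from 1 replicate to the other. The rule, the expected numbers and the length classes used sums over both libraries of a kind. Transcripts are listed by Ensembl transcript identifier and could not be paired with genes, so no gene, pathway or sequence is named, and identifiers are given for only 2 of the transcripts.

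The transcripts without a disome footprint had few monosome footprints, as choosing on a disome count of 0 favours low coverage. Their monosome count over both libraries ran from 20 to 161 with a median of 32.0, whereas the median over the 12670 eligible transcripts with a disome footprint was 146. Replicate 1 gave from 3 to 74 monosome footprints on a transcript (median 14) and replicate 2 from 5 to 91 (median 18). Per length, the median was 9.55 monosome footprints per 100 codons, against 34.7 on the eligible transcripts with a disome footprint, although single short transcripts reached 83.0, 98.3 and 113. Of the 213 transcripts, 92 had fewer than 30 monosome footprints, 37 had at least 50 and 9 had at least 100. Together they took 8458 monosome footprints, or 0.151% of those on eligible transcripts, in shares of the libraries that were close in both replicates (1338 and 1253 CPM).

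The transcript with the most monosome footprints, ENSDART00000077829.6 with 386 codons, had 74 in replicate 1 and 87 in replicate 2, which is 24.9 ± 2.90 CPM (SD, n = 2 libraries). It had 0 disome footprints in each disome library. Over all eligible transcripts there were 12.9 disome footprints per 100 monosome footprints, and at this ratio 20.8 disome footprints would have been counted on it. The 5312 eligible transcripts with at least 200 monosome footprints, called deeply covered, had the same ratio of summed counts, 12.9 per 100. The median of their single ratios was lower, at 9.96 disome footprints per 100 monosome footprints. At that median 16.0 would have been counted on this transcript. Because the transcript was picked for its 0, no fold is drawn from it. The next row of the table, with 200 codons, had 30 and 30 monosome footprints and no disome footprint either. The row after that, with 333 codons, had 150 and 104 disome footprints on 704 and 998 monosome footprints, so rows without and with disome footprints lay side by side.

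The next in order, ENSDART00000192618.1, had a short coding sequence of 142 codons on which 69 and 91 monosome footprints were counted (24.5 ± 0.873 CPM, SD, n = 2 libraries). Its density of 113 monosome footprints per 100 codons was the highest of the 213 transcripts. Against its 0 disome footprints stood 20.6 at the ratio of eligible transcripts and 15.9 at the median of the deeply covered ones. The row before it, with 1613 codons, had 0 and 8 disome footprints on 26 and 27 monosome footprints, and the row after it, with 1040 codons, had 26 and 39 on 293 and 436. Whether these rows belong to the same gene could not be determined.

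The 20 transcripts with the most monosome footprints had at least 65 each (the last of them level with 1 more that is not counted here), with 26 to 74 in replicate 1 and 35 to 91 in replicate 2, and coding sequences of 106 to 1383 codons. Among them, 6 lay within 3 rows of another of the 20. The ratio of eligible transcripts would have given 8.38 to 20.8 disome footprints on each, and the median ratio 6.47 to 16.0. For the weakly covered transcripts the count of 0 says less. The number of disome footprints to be counted at the ratio of eligible transcripts was 2.58 at the minimum of 20 monosome footprints and 4.12 at the median. It was above the 3 counts that a count of 0 allows for 179 of the 213, and for 113 at the median ratio. For the others the expected count itself was within those 3 counts. The upper end of the 95% interval was 12.6 per 100 at 31 monosome footprints and 13.1 at 30. By that bound a count of 0 lay below 12.9 per 100 only from 31 monosome footprints upwards. Because the transcripts were picked for their 0, none of these numbers tests a single transcript. Intervals and floors cover counting error only.

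**Figure D1:**
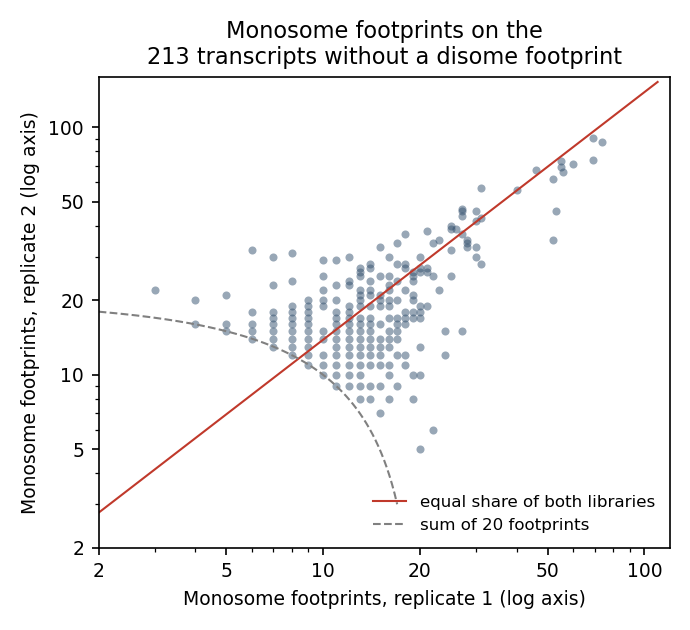
Monosome footprints on each of the 213 transcripts without a disome footprint, in replicate 1 (horizontal, log axis) and replicate 2 (vertical, log axis), 1 point a transcript. The red line marks equal shares of both libraries and the dashed line a sum of 20 footprints; most points lie near the dashed line, and 9 transcripts reach a sum of at least 100.

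Just inside the monosome threshold, 8 transcripts had 20 monosome and 0 disome footprints, with coding sequences of 114 to 1088 codons. Just outside, 8 had 19 monosome and 0 disome footprints and 120 to 1405 codons. On the disome side, 430 eligible transcripts had a single disome footprint, 223 of them in replicate 1 and 207 in replicate 2. Of these, the 5 with the most monosome footprints had 128 to 142 and coding sequences of 140 to 731 codons. They lay within the range of monosome counts of the transcripts without a disome footprint, so the threshold separates transcripts that differ by 1 count.

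The number found depended on how shared counts were handled. A transcript with 0 and 0 disome footprints is told apart from others by its 2 monosome counts only, and 205 of the 418 rows that met the other conditions, or 49%, had been dropped because an earlier row had the same 4 counts. Among rows with a disome footprint, 15.9% were dropped. Of the 205 dropped rows, 68 had an identical row within 3 rows of them, as transcripts that share their footprints would, and 137 did not. With only a row identical to the one just before it dropped, 376 transcripts were found. The number also moved with each library: 840 transcripts had no disome footprint without disome replicate 1 and 639 without disome replicate 2, and 93 and 52 reached 20 monosome footprints without monosome replicate 1 and 2.

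Whether more transcripts lacked disome footprints than the sampling of reads gives was asked at the same monosome counts. If all eligible transcripts had shared 1 disome-to-monosome ratio, 57.6 of them would have been without a disome footprint, against the 213 observed (1.65% of 12883). The excess lay at every monosome count up to 199. With 20 to 24 monosome footprints, 45 of 463 transcripts had no disome footprint (9.72%, 95% Clopper-Pearson interval 7.18 to 12.8), and 27.7 would have been expected. With 40 to 49 there were 26 of 757 against 2.67, and with 50 to 74 there were 23 of 1477 (1.56%, interval 0.990 to 2.33) against 0.789. Of the 5312 transcripts with at least 200 monosome footprints, 0 lacked disome footprints (upper end of the interval 0.0694%). The lowest disome count among them was 2. These intervals take transcripts as independent, although some share footprints, and leave that sharing out.

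The ratio was not shared, however. Across the 5312 deeply covered transcripts the middle 50% had 6.73 to 14.9 disome footprints per 100 monosome footprints, and the 5th and 95th percentiles were 3.49 and 27.9. Described by a gamma distribution with counting error taken out, the ratios of these transcripts had a coefficient of variation of 61.6%. With that spread carried over to all eligible transcripts, 293 would have been expected without a disome footprint, more than the 213 observed. At 50 or more monosome footprints the expected number was 67.4 and the observed number 37. With every row kept and used for the ratio and the spread, 418 were observed and 439 expected. The number of transcripts without a disome footprint thus exceeded that from a common ratio and fell short of that from ratios as spread as those of deeply covered transcripts. Taken as the common ratio, the median of the deeply covered transcripts would have given 130, which is also below the number observed. With every row kept, but with the ratio and spread of distinct counts, the shortfall held only from 40 monosome footprints upwards. Below that, 149 rows had no disome footprint at 20 to 24 monosome footprints where 125 would have been expected, 93 at 25 to 29 against 82.7, and 101 at 30 to 39 against 96.5.

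**Figure D2:**
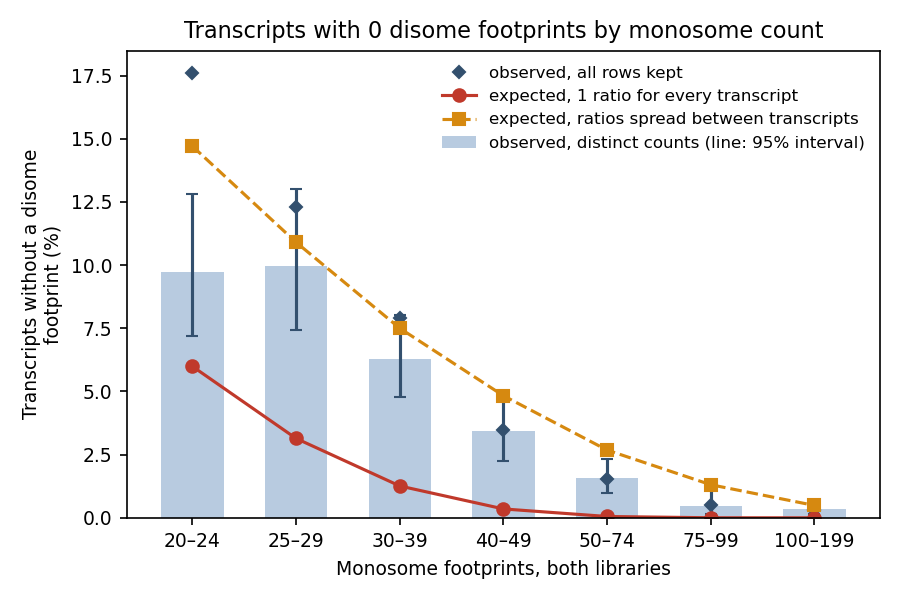
Share of eligible transcripts without a disome footprint (vertical, %) by the number of monosome footprints over both libraries (horizontal). Bars show distinct counts with 95% Clopper-Pearson intervals and diamonds all rows; the red line is the expectation at 1 ratio and the orange line that with the spread of ratios. The bars run from 9.72% at 20 to 24 monosome footprints to 0.367% at 100 to 199, above the red line throughout.

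A level of 0 in the libraries used for choosing is in part the result of choosing. Transcripts were therefore chosen on 1 replicate number alone, by 0 disome and at least 10 monosome footprints, and their disome level was read in the libraries of the other number. Chosen on replicate 1, 582 transcripts had 753 disome footprints on 15646 monosome footprints in replicate 2, a ratio of 4.81 per 100 (95% Clopper-Pearson interval 4.47 to 5.18). All 12554 transcripts with at least 10 monosome footprints in replicate 1 had 9.64, so that the chosen ones were at 49.9% of that level (46.3 to 53.7). Chosen on replicate 2, 906 transcripts were read in replicate 1 at 9.58 per 100 (9.10 to 10.1) against 17.4, which is 55% (52.2 to 57.9). Each reading comes from 1 library of each kind and has no p-value.

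The low level thus held in libraries not used for choosing, in both directions, but the absence did not. At least 1 disome footprint was found in replicate 2 on 391 of the 582 transcripts (67.2%) and in replicate 1 on 673 of the 906 (74.3%), with a median of 1 in each. With more monosome footprints behind the choice the level read was lower. At a minimum of 50 in the choosing library, 33 transcripts chosen on replicate 1 were at 27.3% (21.1 to 34.7) of the level of all such transcripts, and 71 chosen on replicate 2 at 32.8% (28.4 to 37.7). The spread of ratios among deeply covered transcripts would have given 38.7% and 47.5% at the minimum of 10, and 19.4% and 26.5% at the minimum of 50.

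**Figure D3:**
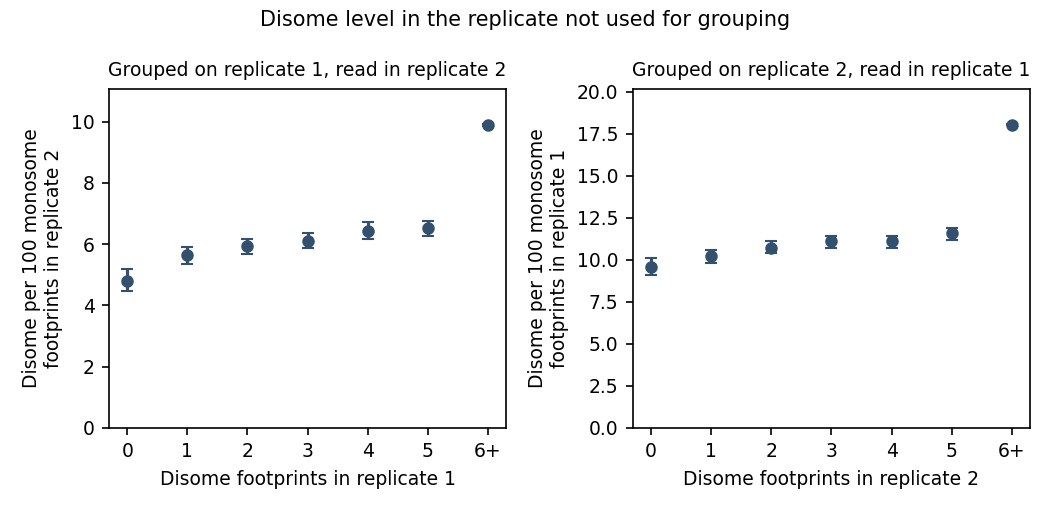
Disome footprints per 100 monosome footprints (vertical) in the replicate not used for grouping, for transcripts grouped by their disome count in the other replicate (horizontal), with 95% Clopper-Pearson intervals of counting error. Transcripts with 0 were lowest in both panels, at 4.81 and 9.58, followed closely by those with 1, at 5.63 and 10.2, and transcripts with 6 or more were at 9.88 and 18.

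Grouped by their disome count in the choosing replicate, transcripts with 0 were next to those with 1 rather than apart from them. In replicate 2 the levels were 4.81, 5.63 and 5.93 per 100 for transcripts with 0, 1 and 2 disome footprints in replicate 1, and in replicate 1 they were 9.58, 10.2 and 10.7. The intervals for 0 and 1 did not overlap in replicate 2 (4.47 to 5.18 and 5.35 to 5.92) and overlapped in replicate 1 (9.10 to 10.1 and 9.80 to 10.6). They hold counting error only and leave out the spread between transcripts, so their overlap does not decide whether the groups differ.

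Coding length between the limits was not used by the rule. The 213 transcripts had a median of 345 codons (quartiles 202 and 530), against 434 (251 and 722) on the eligible transcripts with a disome footprint. Sequences of up to 200 codons made up 24.9% of the former and 15.4% of the latter, and those over 1000 codons 8.45% and 12.5%. Eligible transcripts with few monosome footprints were shorter in general. At 20 to 49 monosome footprints the medians were 338 codons on 176 transcripts without and 390 on 2439 with a disome footprint, and at 50 or more they were 356 on 37 and 447 on 10231. These are descriptions over transcripts, some of which share footprints, and were not tested.

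The excess over the ratio of each length class was also counted. Eligible transcripts of more than 100 and up to 200 codons had the most disome footprints per 100 monosome footprints, 15.8, and yet 53 of 1999 had none, where their own ratio would have given 4.61. Of those with over 200 and up to 300 codons, 45 lacked disome footprints against 8.23, and of those with over 300 and up to 500 codons 60 against 13.5. It was 37 against 23.7 for over 500 and up to 1000 codons, where the ratio was 11.3, and 18 against 14.8 for the longest class with a ratio of 9.41. Those ratios are over all depths, and at 20 to 49 monosome footprints the ratio for distinct counts was between 14.4 and 15.8 in every class. With the ratio at that coverage, 41 transcripts without a disome footprint stood against 5.82 in the shortest class, 41 against 6.43, 48 against 7.41 and 30 against 8.29 in the next ones, and 16 against 3.80 in the longest. For distinct counts the longest class was thus near its expected number only with the ratio over all depths. Dropping shared counts removed 49% of rows without a disome footprint but 15.9% of those with one. With every row kept, over all classes, the ratio at 20 to 24 monosome footprints was 14.7 per 100, against 19.5 for distinct counts. At those ratios 34.8 would have been expected against 149 observed with every row, and 6.67 against 45 for distinct counts. The classes were not counted with every row kept. With the spread of ratios of each class, the expected numbers were 62.3, 67.4, 72.7, 74.7 and 30.2 from the shortest to the longest class, all above those observed. The spread of ratios among deeply covered transcripts fell with length, with a coefficient of variation of 74.3%, 68.3%, 60.7%, 53.6% and 47.1% from the shortest to the longest class. At 20 to 49 monosome footprints the share without a disome footprint was 8.76% in the shortest class (95% Clopper-Pearson interval 6.36 to 11.7). It was 4.35% for over 500 and up to 1000 codons (2.95 to 6.15). In the longest class it was 6.25% (3.61 to 9.95), which overlaps both. The intervals take transcripts as independent, although some share footprints, so they do not decide whether the classes differ.

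**Figure D4:**
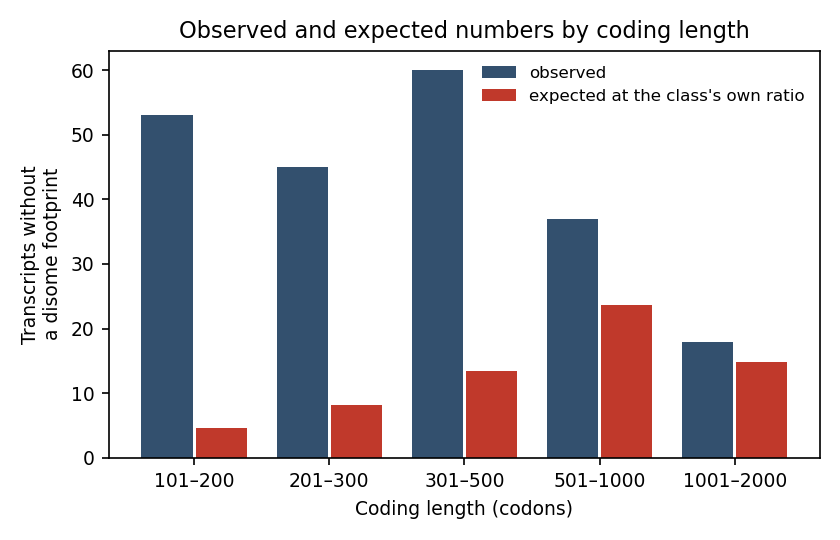
Number of eligible transcripts without a disome footprint (vertical) in 5 classes of coding length in codons (horizontal). Blue bars are observed and red bars expected at the disome-to-monosome ratio of the same class; they stand at 53 and 4.61 in the shortest class and at 18 and 14.8 in the longest. At 20 to 49 monosome footprints, with the ratio at that coverage, the numbers are 41 and 5.82 in the shortest class and 16 and 3.80 in the longest. All are for distinct counts, and over all classes the ratio at that coverage was lower with every row kept.

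The rule used the sum of the monosome libraries and not their balance. Replicate 2 held 56.5% of the monosome footprints on the 213 transcripts, 57.8% of those on the 6699 eligible transcripts with a disome footprint and up to 161 monosome footprints, and 58.1% of all monosome counts. Over single transcripts the quartiles of this share were 48.7% and 63.6%. The quartiles of the 6699 were 52.9% and 62.5%. On the CPM scale 96 of the 213 were higher in replicate 2 (45.1%), against 47.8% of the 6699. Their monosome signal thus came from both libraries.

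Transcripts of a gene that share sequence share footprints, and the 213 are not independent of each other. In the order of the table, 48 had another of the 213 within 3 rows, and the transcripts fell into 188 runs with gaps of more than 3 rows. A row within 3 rows whose monosome count was within a factor of 2 was found for 145 of them, and for 100 of these at least 1 such row held a disome footprint. For the other 45, no such row did. The remaining 68 had no row of this kind. No such counts are given for the other eligible transcripts, so whether these are high or low cannot be told. Reads that fit more than 1 locus are not in these counts, and how many disome and monosome reads each transcript lost in this way was not determined.

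The test across all transcripts compared disome with monosome counts by edgeR's quasi-likelihood test over 16910 transcripts with at least 20 footprints in total. At a Benjamini-Hochberg FDR of 0.01, 21.5% of them differed (3637 transcripts), and 9.72% (1643) were lower in the disome libraries. Among the 213 transcripts 34 were called lower, or 16.0%, and 0 were called higher. Every fitted log2 ratio of disome to monosome counts among the 213 was negative, from -8.49 to -5.49. At an unadjusted p below 0.05 in this test 178 of the 213 were lower and 0 higher, and the share over all transcripts was not counted. Since the rule used this contrast, nothing is read from these counts. All 34 had at least 55 monosome footprints and the others at most 51. The rule gave each of the 213 a disome count of 0, so the call among them could vary only with the monosome counts. The count of 34 was 7 without disome replicate 1, 11 without disome replicate 2, and 19 and 15 without monosome replicate 1 and 2. With DESeq2 it was 9, as only 9 of the 213 received an adjusted p-value there. With 2 libraries of each kind a permutation test of a single transcript cannot go below 0.333 (two-sided), and none was made.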

How the data were processed

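Disome and monosome footprints were sequenced from whole zebrafish embryos at 4 hpf (2 disome and 2 monosome libraries, grouped by their titles). The authors preprocessed reads with fastp, mapped them to GRCz11 with STAR (version 2.7.0a per the submitters' processing notes), kept reads at a single locus with up to 1 mismatch, and deposited the count of footprints on each coding sequence, unnormalized, beside its length in codons. Genes with near-identical copies are thus counted only where they differ. How reads that fit several transcripts were counted is not given in the sources used here.

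Ratios, shares and Clopper-Pearson intervals (95%) were computed with Python 3.11.15, scipy 1.17.1 and pandas 2.3.3, and plots with matplotlib 3.10.9. Expected numbers without a disome footprint are Poisson probabilities of 0 summed over transcripts, or negative binomial ones where ratios spread, with the spread taken from transcripts with at least 200 monosome footprints. Counts were tested with edgeR 4.0.16 in R 4.3.3 (TMM, at least 20 footprints) and, as an alternative, DESeq2 1.42.0. Other alternatives were library totals, other filters, minimums and duplicate handling, the replicate block and leaving out each library. The code was tested on simulated data.

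The rule for named transcripts was the 20 with the most monosome footprints and those beside the thresholds, with at most 2 identifiers, since no table pairs transcripts with genes. Planned gene lists were therefore not used. Members and lists were chosen with earlier results of these data known.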

Additional observations from a re-analysis of the deposited data

How the results depend on the processing

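Transcripts without a disome footprint numbered 213, 121 at a minimum of 30 monosome footprints, 37 at 50 and 9 at 100, 418 with all rows kept, 376 with only a row identical to the one before dropped, and from 52 to 840 with each library left out. The number expected from 1 ratio was 57.6. It was 130 at the median ratio of deeply covered transcripts, 22.9 with a ratio for each of 8 classes of monosome count, 96.6 with all rows kept, and from 1.32 to 501 with each library left out, and was below the number observed in each of these. The 22.9 rests on distinct counts, whose ratio at 20 to 24 monosome footprints was 19.5 per 100, against 14.7 with all rows kept. With a spread of ratios the number expected was 293 by moments, 314 by likelihood and 439 with all rows kept, above the number observed in each. The level read in the other replicate, 49.9% and 55%, was 40.7% and 48.4% at a minimum of 20 and 27.3% and 32.8% at 50, and for transcripts chosen on replicate 1 it was 46.1% of the level at the same monosome counts. It already leaves out a library of each kind, so no library was left out of it. The median coding length of the 213 differed by -89.0 codons from that of the others, and by -152 (without monosome replicate 2) to -81.0 codons (without monosome replicate 1) with each library left out.

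Of all transcripts, 3637 were called with edgeR, 2148 with DESeq2 and from 2120 to 2884 with each library left out. Calls lower in the disome libraries were 1643, but 2519 with library totals, 2491 at an FDR of 0.05, 685 with DESeq2 and from 786 to 1182 with each library left out. Of the calls, 54.8% were higher in the disome libraries. That share was 43.7% with no filter, 38.3% under library totals and 68.1% under DESeq2. Among the 213, 34 were called lower, 93 at an FDR of 0.05, 9 with DESeq2 and from 7 to 19 with each library left out. An arm left with 1 library is assumed to vary like the other arm. Under the replicate block 3448 transcripts and 32 of the 213 were called. As the rule used this contrast, nothing is read from the calls among the 213. Deviations of the disome and monosome libraries with the same number showed no relation (Pearson's r was -0.022 across 8649 transcripts, which are not independent). Counting noise could hide a relation, so this does not show that the libraries are unpaired. The paper describes its additional disome libraries as corresponding to monosome libraries, without saying which to which. The main test took the libraries as unpaired, and the replicate block took the numbers as pairs.

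Dropping only the row identical to the one before, the likelihood estimate, the classes of monosome count, the level at the same monosome counts, and the length difference with a library left out were chosen after seeing the data. At the depth of the disome libraries the expected disome count exceeded 3 on 179 of the 213 only, and on 113 at the median ratio. By the 95% interval, a count of 0 lay below 12.9 per 100 only from 31 monosome footprints upwards. The causes of these shifts were not tested.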

Other observations

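Among distinct counts, absence in a single disome library was more frequent than absence in both. With every row kept, 418 had 0 in both, and absence in 1 library only was not counted in that way. Of the 12883 eligible transcripts, 426 (3.31%) had 0 disome footprints in replicate 1 only and 627 (4.87%) in replicate 2 only, the library with fewer counts. In the library where they were present, their disome counts ranged from 1 to 8 and from 1 to 10, with a median of 2 in each. Their median monosome counts, 39 and 40, were above the 32.0 of the transcripts without any disome footprint and below the 170 of the 11617 with disome footprints in both libraries.

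Outside the limits of coding length, absence was more frequent on very short sequences. Of 477 transcripts of up to 100 codons with distinct counts and at least 20 monosome footprints, 51 had no disome footprint (10.7%, 95% Clopper-Pearson interval 8.06 to 13.8), against 3.21 from their own ratio of 13.8 disome footprints per 100 monosome footprints. The highest monosome count among the 51 was 248. At 20 to 49 monosome footprints the share was 25.5% (39 of 153), whereas it was 6.73% (176 of 2615) for more than 100 and up to 2000 codons. Of 342 transcripts with more than 2000 codons, 3 had none (0.877%, 0.181 to 2.54), against 3.72 from their own ratio. These shares are for distinct counts and were not tested against each other, and their intervals take transcripts as independent. With every row kept, the share for more than 100 and up to 2000 codons was higher at 20 to 24 monosome footprints (17.6% against 9.72%). At 40 to 49 it was about the same (3.48% against 3.43%). Sequences outside the limits were not counted with every row kept.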
